A study of Mus musculus with 5 samples.

Results

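RNA-seq of mouse embryonic airways was read for 10 genes of heart muscle: Myh6, Myh7, Myl7, Myl2, Myl4, Actc1, Tnnt2, Tnni3, Nppa and Ryr2. They were taken by symbol from the 19699 gene entries of the deposited table, all 10 were listed, and 9 passed the filter on low values, Myl2 being too low. Each library was made from the main airway section of the lung, with trachea and lung, of embryos at stage E13.5. The mutant group had 2 libraries from embryos in which Prmt5, an arginine methyltransferase gene, was deleted in lung epithelial cells, and the control group had 3 libraries labelled WT, which the design text calls litter controls. The labels name the mutants a Prmt5 knockdown, and the design text adds Shh to the name of the genotype. Neither the alleles nor a Cre driver nor the number of embryos per library is given in the sources used here. The animals were C57 mice. Nothing says that the libraries came from separate embryos, so a p-value here covers only their own spread, some of which may be technical.

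Heart muscle cells contract through sarcomeres, in which thick filaments of myosin slide along thin filaments of actin, and calcium binding to troponin on the thin filament switches the sliding on. Atrial and ventricular muscle use partly different myosin chains, so these genes also tell the chambers apart. In mice, heart muscle of atrial type is not limited to the heart, since it forms a sleeve around the pulmonary veins that reaches into the lung. Several heart sarcomere genes are also transcribed in embryonic skeletal muscle, such as that of the larynx, oesophagus and neck. In bulk RNA, fewer cells of a type and less RNA per cell cannot be told apart.

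The libraries held 15652503 to 18682463 reads each, as recovered from the steps between FPKM values. Prmt5 itself was at 23.7 and 20.1 FPKM in mutants 1 and 2, against 28.7, 26.4 and 25.8 FPKM in controls 1 to 3 (log2 change -0.29, limma adjusted p = 0.234). These are values of whole tissue, and Prmt5 in the epithelial cells alone was not measured. Xist was at 0.0673 and 0.289 FPKM in mutants 1 and 2 against 57.3 to 115 FPKM in the controls, which also held Y-linked RNA, so sex make-up differed with genotype. The small RNA entry Gm23935 made up 7.69% to 64.8% of all FPKM summed per library.

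For 7 of the 9 genes tested mutants and controls overlapped, and for Myh7 and Actc1 both mutants lay below all controls. Of all genes tested, 37.6% had groups that did not overlap, 24.4% with the mutants lower. With limma on log2(FPKM + 1), 0 of 9 passed an adjusted p of 0.05, against 2.36% of all 12838 genes tested. At an unadjusted p of 0.05, 2 of 9 passed, Myh7 and Actc1, both lower in the mutants, against 18.9% of all genes in either direction and 12.3% in the lower one. Voom on recovered reads called both (adjusted p = 0.0383 for Myh7 and 0.0462 for Actc1). It also called more of all 12838 genes, 603 against 303 in the main fit. Libraries of the same group also differed: control 3 was at least 2-fold above both other controls for 8 of 9 genes, as for 0.896% of all genes. Mutant 2 was at least 2-fold above mutant 1 for 5 of 9, as for 2.11% of all genes. This was not particular to these genes, since it also held for 12 of 27 other heart contractile genes and 8 of 21 skeletal muscle genes tested. These 2-fold rules were set after the values were seen, and the shares describe the libraries without a test.

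**Figure D1:**
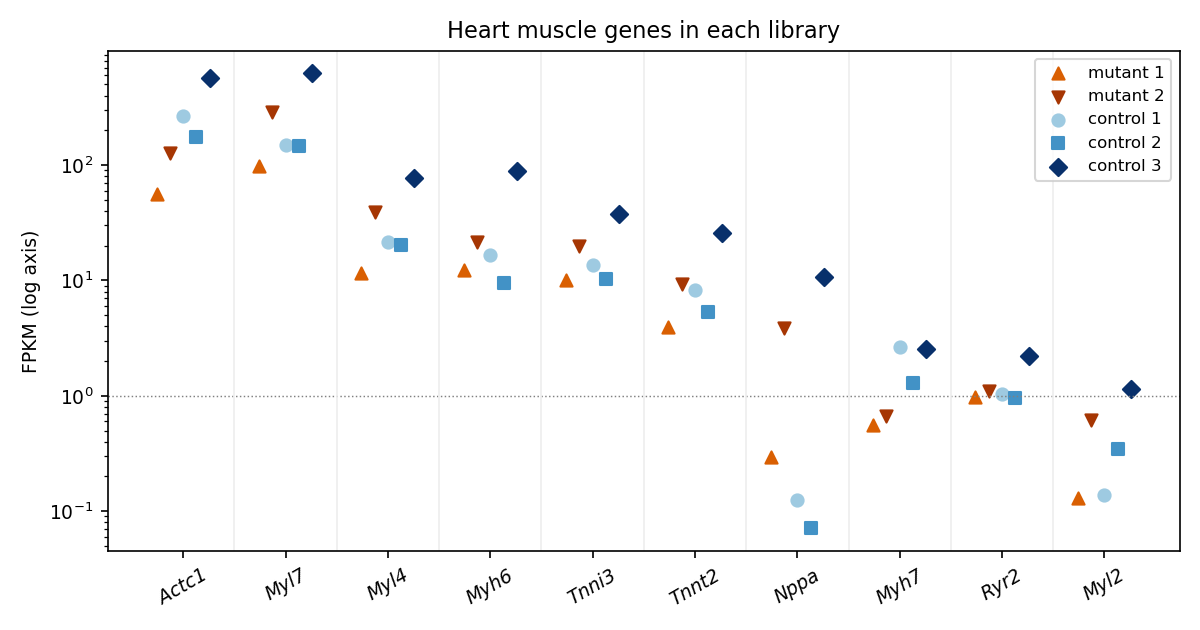
FPKM (log axis) of the 10 heart muscle genes, ordered by their control mean, with 1 point per library (2 mutants, 3 controls) and a dotted line at 1 FPKM. Control 3 is the highest point for every gene but Myh7, and both mutants lie below all controls only for Actc1 and Myh7.

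Promoter sequences of 3 genes are shown because these carry the different patterns. They are Myl7, the highest in FPKM of the heart-restricted genes here, Nppa, the most variable, and Actc1, with the largest difference between the groups. All 10 genes matched the RefSeq promoter table (GRCm38.p6), with 13 start sites, each as a window of 250 bases before to 50 after the annotated start. Capitals mark matches on either strand to 4 motifs: the CArG box, bound by serum response factor, the MEF2 site, GATAA, the core bound by GATA factors, and TATAAA. The windows are chr11:5898733-5899032 on the minus strand for Myl7, chr4:148000472-148000771 on the plus strand for Nppa and chr2:114052826-114053125 on the minus strand for Actc1.
Myl7: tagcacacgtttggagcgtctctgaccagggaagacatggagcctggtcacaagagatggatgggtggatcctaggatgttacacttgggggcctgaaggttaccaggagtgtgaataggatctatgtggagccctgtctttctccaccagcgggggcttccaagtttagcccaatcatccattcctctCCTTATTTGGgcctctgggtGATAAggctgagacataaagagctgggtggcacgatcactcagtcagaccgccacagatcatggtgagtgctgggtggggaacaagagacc
Nppa: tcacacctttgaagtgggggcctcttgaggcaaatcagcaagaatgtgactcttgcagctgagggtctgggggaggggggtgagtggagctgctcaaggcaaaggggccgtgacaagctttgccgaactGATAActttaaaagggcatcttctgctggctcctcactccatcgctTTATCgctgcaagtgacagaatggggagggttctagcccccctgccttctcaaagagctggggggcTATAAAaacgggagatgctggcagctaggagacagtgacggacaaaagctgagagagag
Actc1: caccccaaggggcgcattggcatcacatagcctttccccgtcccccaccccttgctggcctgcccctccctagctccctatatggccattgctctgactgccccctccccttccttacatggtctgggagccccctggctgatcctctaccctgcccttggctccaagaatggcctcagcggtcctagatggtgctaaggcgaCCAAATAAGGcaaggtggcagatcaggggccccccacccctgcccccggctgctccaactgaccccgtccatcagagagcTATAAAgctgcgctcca

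Myl7 held a CArG box at bases 190 to 199 of its window and GATAA at bases 210 to 214. Nppa held GATAA at bases 130 to 134 and, on the other strand, at bases 176 to 180, and TATAAA at bases 242 to 247. Actc1 held a CArG box at bases 204 to 213 and TATAAA at bases 284 to 289. None of these matches overlapped another. Over the 10 genes, a CArG box was in the windows of 2, GATAA in those of 5 (Tnnt2, Nppa, Tnni3, Myl7 and Myl2), TATAAA in those of 4, Myl2 among them, and the MEF2 site in those of 0. Both Myl2 windows, at 122092474 to 122092773 and 122092939 to 122093238 of chromosome 5, lie upstream of the gene start in GENCODE M21, at 122100951. No window at that start was searched. Of all 32851 windows of the same 300 bases, 1.63% held a CArG box, 25.4% GATAA, 13.6% TATAAA and 0.557% the MEF2 site. A match is a run of letters and not a measured site.

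Myh6 encodes the alpha heavy chain of heart myosin, which in mice is the chain of the atria and later of the adult ventricle. It was at 12.4 and 21.4 FPKM in mutants 1 and 2 (1241 and 2129 reads), against 16.5, 9.43 and 88.1 FPKM in controls 1 to 3 (1961, 976 and 10184 reads). The groups overlapped, and control 3 alone held more reads of the gene than the other 4 libraries together. The log2 change, mutant minus control, was -0.55 (SE 0.79, adjusted p = 0.779). Myh7 encodes the beta heavy chain, the chain of the embryonic ventricle and of slow skeletal muscle. It was much lower, at 0.554 and 0.662 FPKM in mutants 1 and 2, against 2.62, 1.28 and 2.57 FPKM in controls 1 to 3. Both mutants lay below all 3 controls, and controls 1 and 3 stood at nearly the same level, unlike those of Myh6. The log2 change was -0.94 (SE 0.24, limma adjusted p = 0.0921), and the exact permutation test of the FPKM, two-sided, gave p = 0.2.

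The heavy chain genes lie head to tail on the minus strand of chromosome 14 (GRCm38), Myh6 at 54941921 to 54966927 and Myh7 at 54970684 to 54994626, with 3.76 kb between them. Prmt5 is on the same chromosome, 424 kb from Myh6. In the annotated transcripts 20.2% of the 50-base words of Myh6 were also found in Myh7, and 15.6% of those of Myh7 in Myh6, so reads in these stretches could have been assigned to either gene. The antisense gene Mhrt overlaps Myh7, and since the use of strand is not given, its reads cannot be told apart from those of Myh7 where exons overlap. Of the other 8 genes, 4 shared no such word with any other gene (Actc1, Nppa, Myl7 and Myl2), and Tnni3 shared 1.69% with Dnaaf3, a gene on the same strand that overlaps it.

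Myl7 encodes the regulatory light chain of atrial myosin and is a marker of atrial muscle. It lies on the minus strand of chromosome 11, at 5896637 to 5898782. It was at 98.2 and 286 FPKM in mutants 1 and 2 (913 and 2642 reads), against 149, 147 and 623 FPKM in controls 1 to 3 (1645, 1419 and 6694 reads). Controls 1 and 2 differed little, control 3 was 4.17-fold above the higher of them, and mutant 2 lay between, so the groups overlapped. The log2 change was -0.51 (SE 0.68, adjusted p = 0.756). Myl2, the regulatory light chain of the ventricle and of slow skeletal muscle, was at 0.130 and 0.622 FPKM in mutants 1 and 2, against 0.137, 0.346 and 1.15 FPKM in controls 1 to 3. These values rest on 4, 19, 5, 11 and 41 reads in the same order. It reached 1 FPKM only in control 3 and was not tested.

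Myl4 encodes the essential light chain of the atrium, which embryonic skeletal muscle also uses. It was at 11.5 and 39.1 FPKM in mutants 1 and 2, against 21.6, 20.4 and 76.9 FPKM in controls 1 to 3. The order of the libraries was that of Myl7, with control 3 the highest, mutant 2 next and mutant 1 the lowest. The log2 change was -0.58 (SE 0.65, adjusted p = 0.698).

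Actc1 encodes the alpha actin of heart muscle, which is also the main alpha actin of early skeletal muscle, and lies at 114047282 to 114053548 on the minus strand of chromosome 2. It was at 56.1 and 128 FPKM in mutants 1 and 2 (1430 and 3248 reads), against 269, 177 and 570 FPKM in controls 1 to 3 (8118, 4662 and 16807 reads). Neither mutant reached the lowest control, but the controls spread over more than 3-fold and the mutants over more than 2-fold. The mutant mean was 92.2 ± 51.0 FPKM (SD, n = 2) and the control mean 338 ± 206 FPKM (SD, n = 3). The log2 change was -1.81 (SE 0.50), the largest of the 9 genes tested, and did not pass (limma adjusted p = 0.112). The exact permutation test gave p = 0.2. Groups that did not overlap were found for 2 of 9 genes, Actc1 and Myh7, both lower in the mutants, against 37.6% of all genes tested in either direction and 24.4% in the lower one.

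Tnnt2 encodes troponin T of heart, which ties the troponin complex to tropomyosin and is made in early skeletal muscle too. It was at 3.95 and 9.37 FPKM in mutants 1 and 2, against 8.22, 5.30 and 25.8 FPKM in controls 1 to 3. Tnni3 encodes troponin I of heart, the inhibitory subunit, and is among the genes most restricted to heart muscle. It was at 10.2 and 19.9 FPKM in mutants 1 and 2, against 13.54, 10.29 and 37.54 FPKM in controls 1 to 3. For both genes control 3 was the highest library, mutant 2 the next and mutant 1 the lowest, and the groups overlapped. The log2 changes were -0.69 (SE 0.58) for Tnnt2 and -0.28 (SE 0.50) for Tnni3 (limma adjusted p = 0.591 and 0.833).

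Nppa encodes the atrial natriuretic peptide precursor, a hormone of atrial muscle and of the embryonic ventricle. It was at 0.293 and 3.84 FPKM in mutants 1 and 2 (4 and 52 reads), against 0.124, 0.0709 and 10.8 FPKM in controls 1 to 3 (2, 1 and 170 reads). It was the most uneven of the 10 genes, close to absent in 3 libraries and clear in mutant 2 and control 3. It passed the filter only through those 2 libraries. The log2 change was 0.05 (SE 1.06, adjusted p = 0.989). Ryr2 encodes the calcium release channel of the sarcoplasmic reticulum and is also transcribed in neurons and smooth muscle. It was at 0.979 and 1.10 FPKM in mutants 1 and 2, against 1.04, 0.950 and 2.19 FPKM in controls 1 to 3, so that control 3 alone stood apart (log2 change -0.19, SE 0.25, adjusted p = 0.747).

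By mean control FPKM, a level per length of gene, the order was Actc1 (338), Myl7 (306), Myl4 (39.6), Myh6 (38.0), Tnni3 (20.5), Tnnt2 (13.1), Nppa (3.66), Myh7 (2.16), Ryr2 (1.39) and Myl2 (0.546). Every gene overlapped its neighbours in this order over the 3 controls, with the exception of Myl7 and Myl4, whose controls were at 147 to 623 and at 20.4 to 76.9 FPKM. The lengths behind these values ran from 590 bases for Myl7 to 16849 for Ryr2. Those of Tnnt2, 7752 bases, and Myl4, 4637 bases, include exons of all annotated transcripts. An FPKM of such a gene understates the level of its main transcript. In reads, Myl4 had 1871, 1544 and 6497 in controls 1 to 3, close to the 1645, 1419 and 6694 of Myl7.

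**Figure D2:**
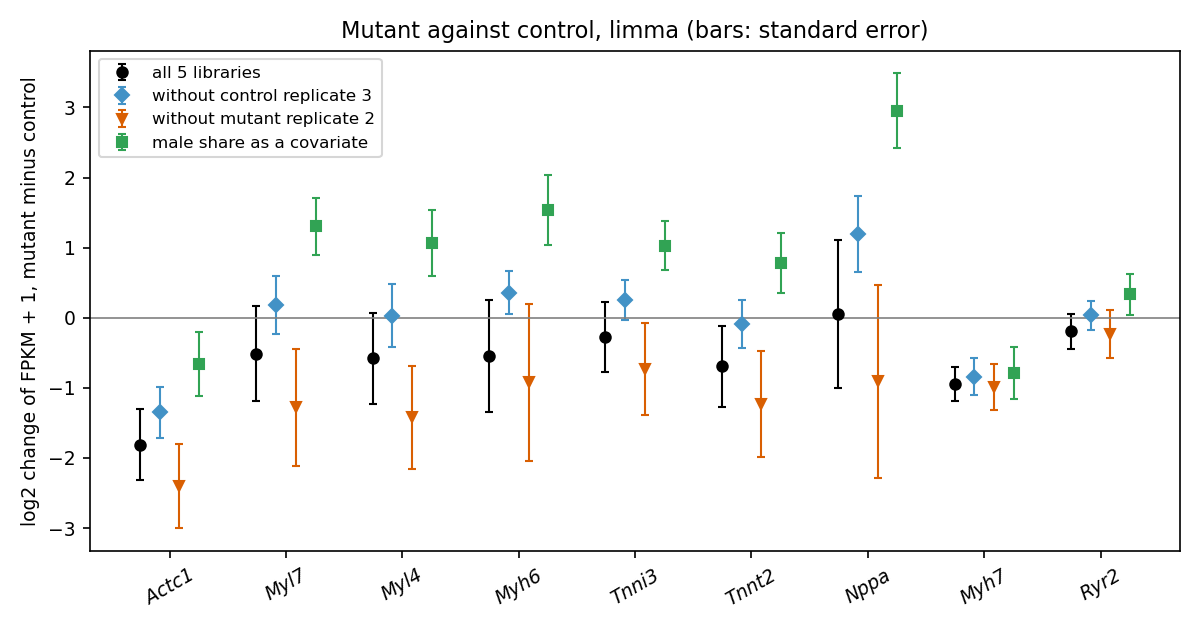
Log2 change of FPKM + 1, mutant minus control, for the 9 heart muscle genes tested, with bars for the standard error, fitted on all 5 libraries, without control 3, without mutant 2 and with the estimated male share as a covariate. Without control 3 the changes of Myh6, Tnni3, Myl7, Myl4 and Ryr2 turn to 0.36, 0.25, 0.18, 0.028 and 0.034 and that of Tnnt2 goes to -0.09, while those of Actc1 and Myh7 stay below 0 in all 4 fits.

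The direction of the difference rested on single libraries for most of these genes. Over all 5 libraries 8 of the 9 log2 changes were negative, with a median of -0.55, against -0.06 over all genes tested, of which 61.1% were negative. Without control 3 the median was 0.034, and without mutant 2 it was -0.99. Without mutant 1, Tnni3, Myl7 and Myl4 turned to 0.18, 0.26 and 0.26. Tnnt2 stayed negative but went from -0.69 to -0.09 without control 3, to -0.16 without mutant 1 and to -1.23 without mutant 2. Actc1 and Myh7 were the 2 genes that stayed negative in all 18 alternative fits, at log2 changes of -2.40 to -0.66 and -1.77 to -0.78. Without control 2, Myh7 passed the threshold (adjusted p = 0.0419), and without control 3 it did not (adjusted p = 0.194).

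Sex make-up also differed between the libraries. The sum of 4 Y-linked genes, as a share of the highest library, was 1 and 0.860 in the mutants and 0.730, 0.598 and 0.142 in controls 1, 2 and 3, so control 3, the library richest in heart muscle RNA, was also the lowest in Y-linked RNA. Mutant 1, the highest in Y-linked RNA, had the lowest heart muscle sum, but over mutant 2, control 1 and control 2 the heart muscle sum fell with the Y-linked share. With this share as a term the log2 changes of Myh6, Myl7, Myl4, Tnni3 and Nppa were 1.54, 1.30, 1.06, 1.03 and 2.96, and 0 of 9 passed (adjusted p = 0.0625 to 0.826). The share is a Y-linked level relative to mutant 1, not a measured fraction of male tissue. Mutant 2 was at 0.860 though its Xist was at only 0.289 FPKM. The share was higher in both mutants than in every control, and control 3 lay far below the rest. Sex make-up and genotype therefore cannot be fully separated by this fit. The part of sex make-up in the spread was not tested.

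Summed over the 10 genes, the level was 194 and 510 FPKM in mutants 1 and 2 against 482, 372 and 1438 FPKM in controls 1, 2 and 3. The sum in control 3 was 3.37-fold the mean of the other controls, and that in mutant 2 was 2.63-fold that in mutant 1. All 10 genes had reads in every library, Nppa only 1 to 4 in mutant 1 and controls 1 and 2. Control 3 was the highest library for 8 of 9 genes tested, against 25.9% of all genes. Control 3 and mutant 2 were together the 2 highest libraries for 7 of 9, against 2.38% of all genes. Both 2-fold rules at once held for 5 of 9, Tnnt2, Actc1, Nppa, Myl7 and Myl4, against 0.351% of all genes. Control 3 and mutant 2 were picked for these rules after the values were seen. A gap from the all-gene shares was thus built in, and these counts describe the libraries without a test.

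**Figure D3:**
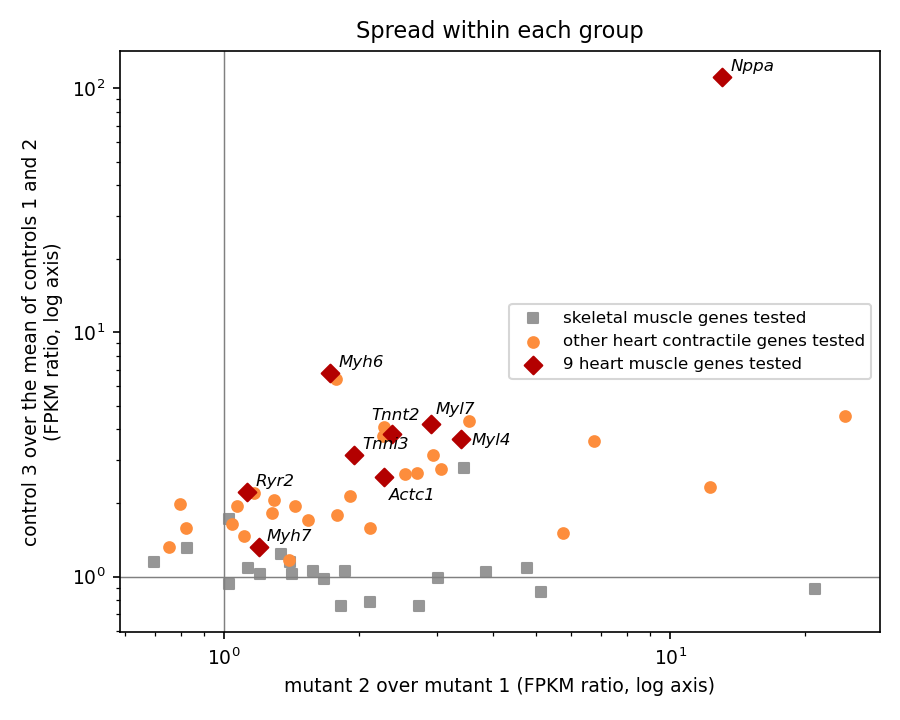
FPKM ratio of mutant 2 to mutant 1 (horizontal, log axis) and of control 3 to the mean of controls 1 and 2 (vertical, log axis), with 1 point per gene tested among the heart muscle genes, the other heart contractile genes and the skeletal muscle genes. Apart from Myh7 the heart muscle genes lie above 2 on the vertical axis, most skeletal muscle genes lie near 1, and the point of Nppa rests on 4, 2 and 1 reads in mutant 1 and controls 1 and 2.

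Ratios within a library change little with its scaling, and 5 were compared on the scale of log2(FPKM + 1). Myl7 against Actc1 was 0.80 and 1.15 in the mutants and -0.84, -0.26 and 0.13 in the controls, so both mutants lay above all controls, by 1.30 on average. This gave p = 0.1 in the exact permutation test, two-sided, the lowest value that 10 splits can give, and 0.333 adjusted over the 5 ratios. Tnni3 against Tnni1, the troponin I of slow skeletal muscle and of the early heart, was 0.35 and 0.40 in the mutants and -0.36, -0.69 and 0.02 in the controls. Actc1 against Acta1, the alpha actin of skeletal muscle, was 4.32 and 3.98 in the mutants and 2.62, 1.96 and 3.62 in the controls. Both ratios were above all controls in both mutants, and each gave an exact permutation p of 0.2 (0.333 adjusted). With these 2 groups no ratio could pass a threshold of 0.05.

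The chamber ratios did not separate the groups. Myl7, the atrial chain, against Myl2, the ventricular one, was 6.46 and 7.47 in the mutants and 7.05, 6.79 and 8.18 in the controls (exact permutation p = 0.7, 0.7 adjusted). Myh6 against Myh7 was 3.11 and 3.75 in the mutants and 2.27, 2.19 and 4.64 in the controls (exact permutation p = 0.7, 0.7 adjusted). Myl7 exceeded Myl2 and Myh6 exceeded Myh7 in all 5 libraries. The pseudocount of 1 FPKM lowers both ratios and changes the order of the libraries for both. Without it Myh6 to Myh7 was 22.4 and 32.4 in mutants 1 and 2 against 6.30, 7.38 and 34.3 in controls 1 to 3. With no pseudocount the ratio of Myl7 to Myl2 was 754 and 460 in mutants 1 and 2 against 1087, 426 and 540 in controls 1 to 3, highest in control 1, where Myl2 had 5 reads.

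**Figure D4:**
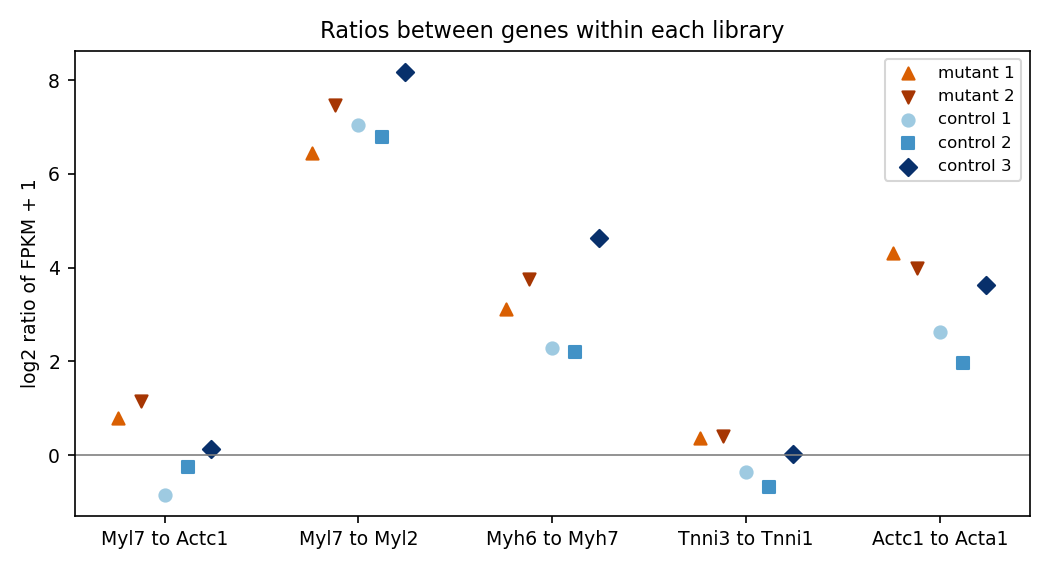
Log2 ratio of FPKM + 1 between 2 genes within each library, for the 5 ratios compared, with 1 point per library (2 mutants, 3 controls). Both mutants lie above all 3 controls for Myl7 to Actc1, Tnni3 to Tnni1 and Actc1 to Acta1, and the groups overlap for Myl7 to Myl2 and Myh6 to Myh7.

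Other genes of heart contraction and calcium handling were also highest in control 3. Of 34 listed, 27 were tested, 0 passed, and the median log2 change was -0.53. Control 3 was the highest library for 26 of 27 and at least 2-fold above both other controls for 11. Mutant 2 was at least 2-fold above mutant 1 for 12. Mybpc3, myosin-binding protein C of heart, was at 3.60 and 6.41 FPKM in mutants 1 and 2, against 4.36, 3.64 and 25.8 FPKM in controls 1 to 3. Tnnc1, troponin C of heart and slow muscle, was at 14.8 and 45.2 FPKM in mutants 1 and 2, against 46.1, 38.5 and 117 FPKM in controls 1 to 3. Sln, sarcolipin, a regulator of the calcium pump in atria and in embryonic skeletal muscle, was at 1.11 and 13.6 FPKM in mutants 1 and 2, against 9.77, 7.50 and 20.1 FPKM in controls 1 to 3.

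The heart contraction genes with the smallest p were Actn2, Casq2 and Myom2, all of which striated muscle of other kinds can transcribe. Actn2, alpha-actinin of the Z disc, was at 1.80 and 4.58 FPKM in mutants 1 and 2, against 10.9, 8.88 and 25.9 FPKM in controls 1 to 3. Casq2, calsequestrin of the calcium store, was at 1.90 and 3.41 FPKM in mutants 1 and 2, against 8.16, 5.02 and 11.7 FPKM in controls 1 to 3. Both mutants lay below all controls for each, and neither passed (log2 change -1.89 and -1.31, limma adjusted p = 0.0779 and 0.0812), nor did Myom2, at -1.02 (adjusted p = 0.0955). Some genes of the list were too low to test. Myl3, the ventricular essential light chain, had 9 to 43 reads per library, Pln, phospholamban, had 0 to 43, and Ttn, titin, a very long gene, had 326 to 2185 reads and reached 1 FPKM only in control 3. Both mutants lay below all controls for Ttn. Actn2 and Casq2 each passed in 1 of 18 alternative fits, and Myom2 in 1 of 17.

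Many heart transcription factors also act in lung mesenchyme, and they did not all follow the sarcomere genes. Nkx2-5, the early heart factor, was at 2.29 and 4.02 FPKM in mutants 1 and 2, against 2.88, 2.37 and 10.0 FPKM in controls 1 to 3, again highest in control 3, with a log2 change of -0.37 (SE 0.48, adjusted p = 0.752). Hcn4, the pacemaker channel, was at 1.37 and 2.25 FPKM in mutants 1 and 2, against 1.92, 2.20 and 5.80 FPKM in controls 1 to 3. Isl1, a factor of second heart field cells and of several nerve and foregut cells, had a log2 change of -0.88 (SE 0.18, adjusted p = 0.0565) and passed in 4 of 18 alternative fits (adjusted p = 0.0279 to 0.662 over the 18), and its controls did not follow Myl7, at 13.7, 9.23 and 11.3 FPKM. Gata4 and Tbx5 differed by 0.50 and 0.57 on the log2 scale and Mef2c by -0.54 (adjusted p = 0.636, 0.136 and 0.111 in limma), and Mef2c passed in 1 of 18 alternative fits. Of 21 factors 19 were tested and 1 passed, Hey1, a Notch target that fell by 0.97 on the log2 scale (adjusted p = 0.0175).

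Of 12 genes of hormones, channels and junctions 7 were tested and 0 passed, with a median log2 change of -0.12. Gja1, connexin 43, and Cacna1d, a calcium channel, showed log2 differences of 0.36 and 0.35 (limma adjusted p = 0.199 and 0.447). Nppb, the other natriuretic peptide, had 1 to 6 reads per library. Bmp10, a signal of trabecular and atrial muscle, had 0 to 9 reads per library, the 9 in control 3.

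Of 30 skeletal muscle genes listed 29 were in the table and 21 were tested, and 17 fell in the mutants, against 1.37% of all genes tested. Their sum was 38.3 and 70.9 FPKM in mutants 1 and 2 against 323, 239 and 298 FPKM in controls 1, 2 and 3, so that control 3 did not stand apart. Myog, a factor of muscle differentiation, was at 2.33 and 4.96 FPKM in mutants 1 and 2, against 37.0, 23.4 and 23.6 FPKM in controls 1 to 3, a log2 change of -2.67 (SE 0.28, limma adjusted p = 0.0077). Acta1 was at 1.86 and 7.18 FPKM in mutants 1 and 2, against 42.8, 44.6 and 45.4 FPKM in controls 1 to 3, a log2 change of -3.23 (SE 0.37, adjusted p = 0.0107). Myod1, Myh3, Mybph, Tmem8c, Klhl41 and Myl1 fell by 2.31, 3.49, 2.73, 2.18, 1.87 and 2.39 on the log2 scale. Mutant 2 was above mutant 1 for Acta1 and Myog as it was for Actc1 and Myl7, and at least 2-fold above it for 8 of the 21 tested.

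Actc1, Myh7, Tnnt2, Myl4 and Myl2 are transcribed in skeletal muscle as well as in heart, and the part of skeletal muscle in their differences was not tested. Without mutant 1 the count of these skeletal genes past the threshold was 1 of 17, without mutant 2 it was 5, 8 when low genes were kept in and 6 when the male share entered as a term, and all 17 changes stayed negative in each of these fits. Without both mutant 2 and control 3 it was 3. Without control 1, 2 or 3 it was 15, 14 and 15, and Myl1 and Neb lost the threshold each time, Chrng without control 2.

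**Figure D5:**
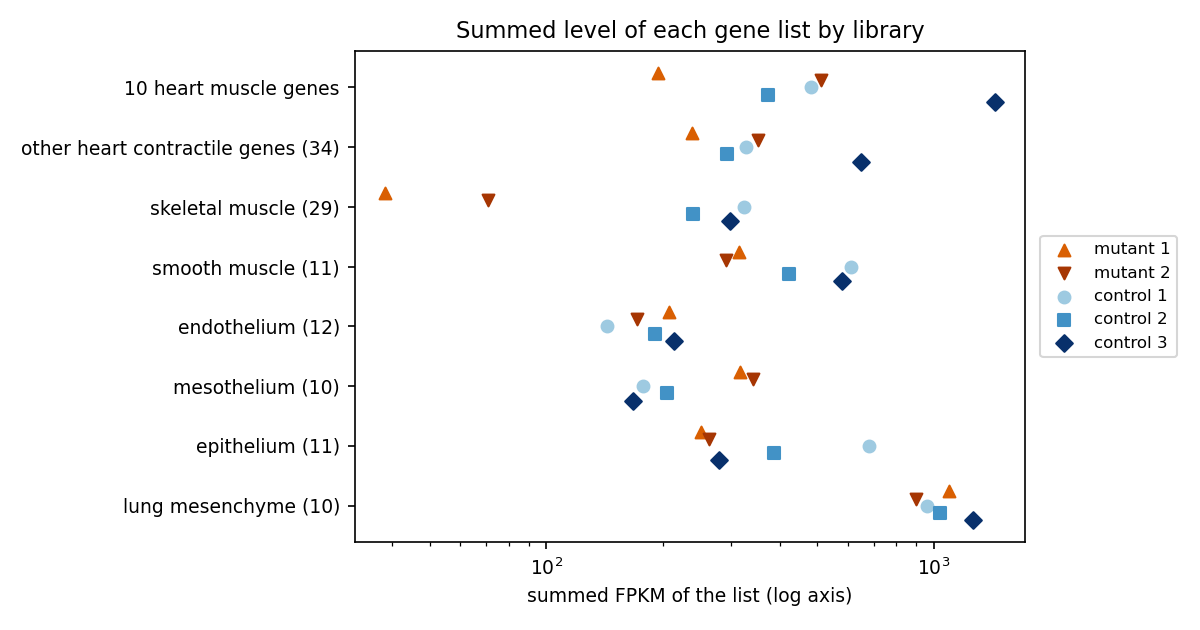
Summed FPKM (log axis) of 8 gene lists, with the number of genes in each, as 1 point per library (2 mutants, 3 controls). Control 3 stands apart from the other 4 libraries for both heart lists, both mutants stand apart for skeletal muscle at 38.3 and 70.9 FPKM, and neither pattern is seen for endothelium or lung mesenchyme.

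For none of the other tissue lists were control 3 and mutant 2 the 2 libraries with the highest sums, as they were for the heart muscle genes. Epithelial markers, which fit the labelled tissue, were present in all libraries, with the lung factor Nkx2-1 at 20.4 to 43.1 FPKM, and 2 of 11 fell, Sox2 and Foxa1 (log2 change -2.68 and -1.43), while Scgb3a2 was at -2.33 (adjusted p = 0.0163, 0.0419 and 0.0668). Their sum was 250 and 263 FPKM in mutants 1 and 2 against 679, 387 and 279 FPKM in controls 1, 2 and 3, so control 3 had the lowest sum of the controls. This did not hold for each gene. Foxa1 was at 16.0 and 14.9 FPKM in controls 2 and 3, but Sox2 was at 16.5 and 26.9 and Scgb3a2 at 21.6 and 22.3 FPKM. Of 10 lung mesenchyme genes 3 rose, Fgf10, Tbx4 and Wnt2 (log2 change 1.79, 1.02 and 1.45), and the sums were 902 to 1096 FPKM in mutants 1 and 2 against 961 to 1263 FPKM in the controls. Of 12 genes of endocardium and endothelium 1 rose, Npr3 (log2 change 0.83), while Emcn and Pecam1 were at 0.28 and -0.13. Sums of that list were 171 to 208 FPKM in mutants 1 and 2 against 143 to 213 FPKM in the controls.

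Of 10 smooth muscle genes tested 1 fell, Actg2 (log2 change -1.89), while Cnn1, Myh11 and Acta2 were at -1.37, -2.02 and -0.70 (adjusted p = 0.0516, 0.0772 and 0.127), with sums of 291 to 314 FPKM in mutants 1 and 2 against 424 to 610 FPKM in the controls. Of 9 genes tested of mesothelium and epicardium 1 rose, Calb2 (log2 change 2.95), while Upk1b and Aldh1a2 were at 0.97 and 1.34 (adjusted p = 0.0516 and 0.106), with sums of 316 to 342 FPKM in mutants 1 and 2 against 168 to 205 FPKM in the controls. Of 4 cartilage genes tested 3 fell, Col2a1, Col9a1 and Col11a1 (log2 change -1.42, -1.65 and -0.95), with sums of 43.9 to 51.1 and 72.2 to 99.2 FPKM. Of 9 genes of red blood cells 0 passed, with Hbb-bh1, Hbb-y and Hba-x at 0.66, 0.58 and -0.35 (adjusted p = 0.0736, 0.118 and 0.184) and sums of 4438 to 5441 and 3828 to 5645 FPKM. Of the 29 genes called over all 11 lists, 1 was still called without mutant 1, 5 without mutant 2 and 24 to 26 when 1 control was left out. The number was 9 with no filter on low genes, 11 with the male share as a term and 17 with TPM. Hey1, Npr3, Tbx4, Wnt2, Col9a1, Col11a1, Neb and Tnnt1 were lost in all of these. Of the genes that did not pass, Scgb3a2, Cnn1, Myh11, Upk1b and Aldh1a2 passed in 3, 4, 4, 5 and 2 of 18 alternative fits. The part of these tissues in the heart muscle values was not tested.

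Genes with the most similar pattern were ranked by the root mean square distance between centred log2(FPKM + 1) values over the 5 libraries. Nearest to the mean of Myh6, Tnni3, Myl7 and Nppa were Mybpc3 (0.225), Hspb7 (0.257), Slc17a7 (0.305), Tcap (0.309), Pgam2 (0.368), Mybphl (0.369), Nkx2-5 (0.373), Csrp3 (0.374), Ankrd1 (0.385) and Ldb3 (0.391). The reference itself varied by 0.997 on the same measure. Hspb7, a small heat shock protein of heart and skeletal muscle, was at 28.1 FPKM in control 3 and 7.09 FPKM in control 2. Among the 9 genes tested, Myl7 (0.209), Myh6 (0.265), Myl4 (0.300) and Tnnt2 (0.312) lay close to this profile. Actc1 (0.833) and Myh7 (0.923) lay far from it. Ryr2 was at 0.753, but this distance also grows where a gene varies less, and Ryr2 was near 1 FPKM in 4 libraries. Control 3 and mutant 2 were its 2 highest libraries, as they were for the reference. Tnni3 was at 0.336 and Nppa at 0.453, and these with Myl7 and Myh6 make up the reference.

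Nearest to the mean of Actc1, Tnnt2, Myl4 and Myh7 were Trim55 (0.160), Smyd1 (0.173), Tnni1 (0.179), Casq1 (0.201), Tnnc1 (0.205), Ldb3 (0.232), Apobec2 (0.239), Sh3bgr (0.240), the microRNA entry Mir7669 (0.246) and Unc45b (0.250). Smyd1, a methyltransferase of heart and skeletal muscle, had a log2 change of -1.25 (adjusted p = 0.136), and Trim55, a ubiquitin ligase of the sarcomere, of -1.24 (adjusted p = 0.178). Tnni1 was at 7.76 and 14.8 FPKM in mutants 1 and 2, against 17.7, 17.2 and 37.1 FPKM in controls 1 to 3, a log2 change of -0.995 (adjusted p = 0.201). Ldb3 was near both profiles. Of the genes that make up this second profile, Tnnt2 was at 0.235, Myl4 at 0.370, Actc1 at 0.400 and Myh7 at 0.476 from it, so Myl4 lay nearer to the first profile (0.300). With 5 libraries the distances describe these values only.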

How the data were processed

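The deposited table held 1 FPKM value (fragments per kilobase of gene, scaled to library depth) per gene and library for 5 libraries, and the deposited file's name gives that unit. GRCm38 and mm10 are named in the submitters' processing notes. Aligner, counter, annotation, filters and strand setting: not given in the sources used here. A SMARTER kit for mRNA was used on 1.3 ug of RNA per library, per the labels' protocols. The label of treatment describes fat cell culture and was not used.

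All 19699 entries were whole multiples of 1 read per library at a relative tolerance of 1e-13, and the annotated length in GENCODE M21 (GRCm38) fitted 13965 of 18893 entries with 1 symbol match (73.9%). For other genes, such as Ryr2, Myh6 and Myh7, the smallest whole reads were taken, so their reads are lower bounds. Positions and transcript words are from GENCODE M21, matched by symbol.

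The test was limma 3.58.1 (lmFit and eBayes, prior variance with a trend) on log2(FPKM + 1), two-sided, with no covariate and all 5 libraries, for 12838 genes that reached 1 FPKM in 2 or more libraries, with Benjamini-Hochberg adjusted p-values over these genes and a threshold of 0.05. Fold changes on this scale understate those of low genes. Exact permutation tests used the absolute difference of means. The alternatives were another pseudocount (0.1), other filters, scalings and eBayes settings, voom on recovered reads, the male share or the replicate number as a term, and leaving out each library, where a lone mutant is assumed to vary like the controls. The fit without both mutant 2 and control 3 was added after the data were seen. Simulated reads were used to test the main fit only, not the alternatives. They held no library that stood apart as control 3 does here, and their outcome is not reported here.

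The 10 genes, the 11 marker lists and the rules for them were chosen with earlier results of these data known. The rule for other named genes takes a set of genes fixed by name, the 3 tested genes of smallest p in each list and the 10 genes nearest to each profile, leaving out predicted and sex-linked genes, and some genes it takes are not reported here. Neb, Chrng, Tnnt1, Xist, Gm23935, Nkx2-1, Dnaaf3 and Mhrt are named outside it, chosen after their values were seen.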

Additional observations from a re-analysis of the deposited data

How the results depend on the processing

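Of the 9 heart muscle genes tested, 0 passed in 15 of 18 alternative fits. With TPM the count was 1, Actc1 (log2 change -2.39, adjusted p = 0.0484), with voom on recovered reads it was 2, Actc1 (-1.82, adjusted p = 0.0462) and Myh7 (-1.77, adjusted p = 0.0383), and leaving out 1 library gave 0 to 1. The count over all genes was 303, but 69 with no filter on low values, 67 with TPM, 603 with voom, 55 with the male share as a covariate, 4 to 284 when 1 library was left out and 5 without both mutant 2 and control 3. Under TPM the all-gene median went from -0.06 to -0.59 on the log2 scale. With Gm23935 left out of the TPM total this median was -0.13, Actc1 was at -1.89 (limma adjusted p = 0.0872) and 0 of 9 heart muscle genes passed. Depth limits Nppa and Myl2, with 229 and 80 reads in all.

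Leaving out 1 library gave log2 changes of -1.19 to 0.36 for Myh6, -1.16 to -0.83 for Myh7, -1.23 to -0.09 for Tnnt2, -2.40 to -1.22 for Actc1, -0.90 to 1.19 for Nppa, -0.73 to 0.25 for Tnni3, -1.28 to 0.26 for Myl7, -1.42 to 0.26 for Myl4, -0.32 to 0.034 for Ryr2, -0.69 to 0.17 for Nkx2-5, -0.034 to 0.87 for Gata4 and -2.56 to 0.23 for Sln. Differences of the ratios ran from -0.88 to 0.13 for Myl7 to Myl2 and from -0.026 to 1.20 for Myh6 to Myh7. With the male share as a covariate, Myh6, Tnnt2, Tnni3, Myl7, Myl4 and Ryr2 turned to 1.54, 0.78, 1.03, 1.30, 1.06 and 0.33, the median of the 9 genes to 1.03, and Nkx2-5, Tnnc1, Sln and Hcn4 to 0.93, 0.15, 0.092 and 0.45. With TPM, Nppa, Gja1, Cacna1d, Emcn and Hbb-y turned to -0.28, -0.21, -0.12, -0.21 and -0.000307. Without both mutant 2 and control 3, Pecam1 turned to 0.058. The cause of these turns was not tested.

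The titles share numbers 1 and 2, but nothing says that a number marks a litter or batch. Same-numbered libraries had correlations of -0.07 and 0.02 between their deviations from the group means. With 2 mutants their deviations are mirror images, so these values are not separate checks and cannot settle whether the libraries are paired. With the replicate block, in which control 3 has no partner, 259 genes passed and 0 of 9 heart muscle genes, and Myh6, Tnni3, Myl7, Myl4, Ryr2 and Nkx2-5 turned to 0.36, 0.25, 0.18, 0.028, 0.034 and 0.17.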
